A study of Mus musculus with 6 samples.

Results

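Receptors and secreted proteins of the mature neutrophil were followed in whole mouse bone marrow after induction of c-Jun, the product of Jun and a part of the transcription factor AP-1. The set holds 10 genes, Csf3r, Cxcr2, Fpr1, Fpr2, Trem1, Il1r2, Slpi, Hp, Retnlg and Mmp25, taken as the probe sets to which the deposited annotation gives that symbol and no other. Of these genes 8 had such a probe set, with 2 for Trem1, which made 9 of the 45101 probe sets on the array. Retnlg, a resistin-like protein, and Mmp25, a membrane-type matrix metalloproteinase, had none and were not analysed here.

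Neutrophils mature in the marrow from promyelocytes, which make the enzymes of the primary granules, through stages that fill the secondary and tertiary granules, to segmented cells that leave for the blood. The last stages switch on receptors for growth factors, chemokines and bacterial peptides, together with proteins that damp or spread inflammation. Whole marrow was not sorted, and monocytes also express several of these genes.

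The study used c-Jun inducible mice aged 8 weeks on Affymetrix arrays. The 3 induced arrays (day 1) came from mice that drank water with doxycycline, the inducing antibiotic, at 1 mg/ml for 24 h, and the 3 control arrays (day 0) came from such mice before induction. Every array held RNA from 3 pooled mice. Both groups thus carry the inducible c-Jun, the labels do not name the promoter that drives it, and no mice with doxycycline but without the inducible gene were analysed here, so effects of the antibiotic, of c-Jun and of the day cannot be told apart. In bulk marrow RNA, a change in the number of cells of a type and a change in RNA per cell cannot be told apart either. Nothing in the labels says how the pools of a group were separated beyond calling them biological replicates, and p-values measure the spread between these pools.

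Signals of single probe sets are given below in arbitrary units, as deposited, with means ± SD (n = 3 arrays a group). The summed signal was 222930 to 278500 on induced arrays and 189287 to 214237 on control arrays, and the median over the 2868 probe sets whose mean exceeded 10 was 22.8 to 28.6 and 19.0 to 22.6. Control 2 had 346 signals of 0, against 4651 to 7813 on the other arrays. The 5' over 3' signal of the Gapdh controls, a measure of RNA integrity and amplification, was 27.5% ± 1.58 on induced arrays and 16.5% ± 5.50 on control arrays (two-sided exact permutation p = 0.1, the lowest value possible with 3 arrays a group). The part of these differences in the results below was not tested, apart from the rescaling of the arrays. Jun was near background on all arrays, with 2.80 ± 1.41 on induced and 1.13 ± 0.902 on control arrays for the brighter of its 2 probe sets (limma, adjusted p = 0.446), and whether that probe set reads the inducible gene is not known here.

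Slpi, Il1r2 and Trem1 rose after 24 h of induction, and none of the 8 genes fell by the test as deposited (limma; at an unadjusted p under 0.05, 6 were higher and 1 lower). That is 3 of 8 genes, against 5.14% higher and 1.82% lower among all 16239 genes tested (limma on log2(signal + 16), adjusted p under 0.05). The share of all genes at an unadjusted limma p under 0.05 was not computed, for these counts or for those of the lists below. Among the 1913 genes with a mean signal over 10, where Slpi, Fpr2 and Hp lie, 30.1% were called higher and 9.46% lower. The median log2 change of the 8 genes was 0.28, against -0.0014 over all genes tested and 0.20 over those with a mean signal over 10. All 9 probe sets passed the filter on dim probe sets. The signals of the 3 induced arrays lay above those of the 3 controls for 6 of the 8 genes and below them for 1, Hp, against 12.4% and 7.41% of all genes tested.

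**Figure D1:**
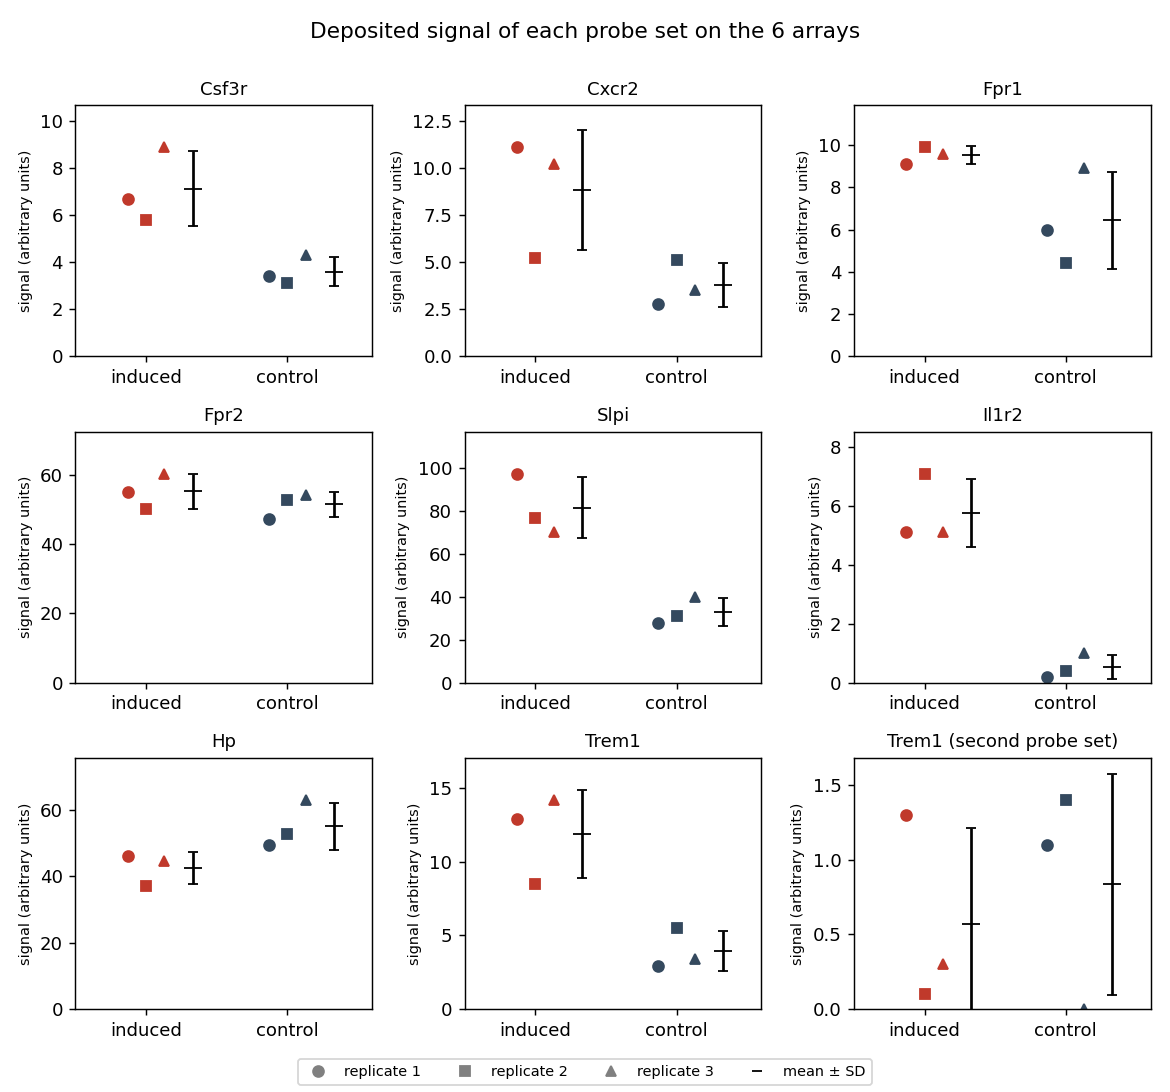
Deposited signal (arbitrary units, linear axes from 0) of the 9 probe sets on the 3 induced and 3 control arrays. Symbols are replicates and bars the mean ± SD. The groups separate for Slpi, Il1r2, the brighter Trem1 probe set, Csf3r, Cxcr2, Fpr1 and Hp, with Hp lower on induced arrays, and overlap for Fpr2 and the other Trem1 probe set.

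Slpi, the secretory leukocyte protease inhibitor, restrains neutrophil elastase and cathepsin G. Its signal was 97.2, 76.6 and 70.1 on induced arrays, against 27.5, 31.2 and 40.0 on control arrays. The lowest induced array was well above the highest control. The means were 81.3 ± 14.1 and 32.9 ± 6.42, a ratio of 2.47, and the log2 change of (signal + 16) was 0.99 with a standard error of 0.11 (limma, adjusted p = 0.00113). The call held without any 1 array and under each rescaling of the arrays, and was lost at a pseudocount of 1, where the log2 change was 1.28 (adjusted p = 0.159).

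Il1r2, the decoy receptor that binds interleukin 1 without signalling, was close to background before induction. Its signal was 5.1, 7.1 and 5.1 on induced arrays, against 0.2, 0.4 and 1.0 on control arrays. All 3 controls lay under 2, the top signal of the array's bacterial control probe sets, so the rise is given as at least 2.88-fold, a bound for these MAS5 signals only. Its log2 change of (signal + 16) was 0.40 with a standard error of 0.05 (limma, adjusted p = 0.00279). Of the 8 genes, Il1r2 alone was called under every alternative that was run, including a pseudocount of 1 (adjusted p = 0.0113), at which 0.481% of all genes were called higher and 0.388% lower.

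Trem1 is a receptor of neutrophils and monocytes that amplifies inflammatory signals through the adaptor Tyrobp. By its brighter probe set the signal was 12.9, 8.5 and 14.2 on induced arrays, against 2.9, 5.5 and 3.4 on control arrays. The groups did not overlap, and the nearest arrays were induced 2 and control 2. The means were 11.9 ± 2.99 and 3.93 ± 1.38, and the log2 change of (signal + 16) was 0.48 with a standard error of 0.08 (limma, adjusted p = 0.0095). The other probe set gave 1.3, 0.1 and 0.3 on induced arrays and 1.1, 1.4 and 0 on control arrays, all under the background of 2 (adjusted p = 0.924). With both probe sets averaged Trem1 was not called (adjusted p = 0.0668), and it also lost its call without control 3 (adjusted p = 0.0531), without a filter on dim probe sets (0.0648) and at a pseudocount of 1 (0.143).

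Because Slpi and Trem1 rose together, the bases before their RefSeq starts (GRCm38.p6) are shown. They were searched on both strands for AP-1 (TGANTCA), CRE (TGACGTCA), C/EBP (TTNNGNAA) and PU.1 (GAGGAAG) motifs, the last 2 being factors of granulocyte and myeloid genes. Matches to these motifs are in capitals, and in these 2 windows all are to the C/EBP motif. The Slpi bases lie at chr2:164356508-164356757 on the minus strand and those of Trem1 at chr17:48232489-48232712 on the plus strand.
Slpi: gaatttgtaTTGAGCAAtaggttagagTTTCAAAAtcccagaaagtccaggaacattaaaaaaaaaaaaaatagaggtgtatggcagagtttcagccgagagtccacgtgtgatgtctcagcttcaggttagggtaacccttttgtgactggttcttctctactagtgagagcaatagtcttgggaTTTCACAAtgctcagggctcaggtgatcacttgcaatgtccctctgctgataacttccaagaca
Trem1: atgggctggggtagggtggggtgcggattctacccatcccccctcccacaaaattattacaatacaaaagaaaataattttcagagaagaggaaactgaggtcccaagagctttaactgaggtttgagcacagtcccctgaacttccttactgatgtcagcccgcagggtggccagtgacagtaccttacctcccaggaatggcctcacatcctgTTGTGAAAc

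The Slpi window holds 3 C/EBP matches and that of Trem1 holds 1. All windows were searched over 250 bases; of that of Trem1, 224 are printed, as the rest lie inside the span of the gene. Of the 9 genes of the set in the promoter table, 5 had a C/EBP match in the 250 bases of the window, Retnlg among them. A PU.1 match was found for 2, Csf3r and Mmp25, an AP-1 match for 0 and a CRE match for 0. Retnlg and Mmp25 had no probe set. Among all 32851 windows of that length in the table, 36.8% held the C/EBP motif, 10.6% PU.1, 6.75% AP-1 and 1.55% CRE. The C/EBP letters are short and frequent, and a match describes the letters only. The windows of Il1r2 and Csf3r lie inside the spans of these genes and are not shown.

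Csf3r, Cxcr2 and Fpr1 had higher signals on induced arrays and were not called. Csf3r, the receptor for the granulocyte growth factor G-CSF, had 6.7, 5.8 and 8.9 on induced arrays, against 3.4, 3.1 and 4.3 on control arrays. The groups did not overlap, at a ratio of means of 1.98 and a log2 change of (signal + 16) of 0.24 with a standard error of 0.06 (limma, adjusted p = 0.0578). With the probe sets of each gene averaged before the fit, Csf3r was called higher (limma, adjusted p = 0.0454). Its log2 change was the same 0.24 there, as Csf3r has no other probe set. That fit was adjusted over 14434 genes, against 31526 probe sets in the main fit. Cxcr2 binds the CXC chemokines that draw neutrophils out of the marrow. It had 11.1, 5.2 and 10.2 on induced arrays, against 2.8, 5.1 and 3.5 on control arrays. Induced 2 and control 2 were almost equal while the other induced arrays were well above all controls (log2 change 0.32, standard error 0.09, adjusted p = 0.0921). Without induced 2 Cxcr2 was called higher (adjusted p = 0.00891), as it was with an intensity trend in the variance model (0.0114).

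Fpr1 and Fpr2 are receptors for formylated peptides that bacteria and damaged mitochondria release. They lie head to head on chromosome 17, with 3884 bases between them in RefSeq (GRCm38.p6). Fpr1 had 9.1, 9.9 and 9.6 on induced arrays, against 6.0, 4.4 and 8.9 on control arrays. The induced arrays were close to each other and control 3 came near them (log2 change 0.19, standard error 0.07, adjusted p = 0.228). Without control 3 Fpr1 was called higher (adjusted p = 0.0488). Fpr2 had 55.2, 50.1 and 60.4 on induced arrays, against 47.4, 52.8 and 54.2 on control arrays, and the groups overlapped. Its log2 change of (signal + 16) was 0.08 with a 95% interval of -0.07 to 0.23 (limma, adjusted p = 0.721), and its sign turned under each rescaling of the arrays.

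Because they are neighbours, their upstream bases are shown in the same way, with matches in capitals (all C/EBP). Fpr1 is on the minus strand at chr17:17883940-17884189 and Fpr2 on the plus strand at chr17:17887574-17887823 (GRCm38.p6).
Fpr1: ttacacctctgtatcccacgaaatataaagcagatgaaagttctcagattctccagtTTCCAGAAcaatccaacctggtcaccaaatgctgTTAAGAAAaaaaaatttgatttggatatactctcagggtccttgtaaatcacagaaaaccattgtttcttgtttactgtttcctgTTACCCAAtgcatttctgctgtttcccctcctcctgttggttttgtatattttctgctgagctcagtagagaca
Fpr2: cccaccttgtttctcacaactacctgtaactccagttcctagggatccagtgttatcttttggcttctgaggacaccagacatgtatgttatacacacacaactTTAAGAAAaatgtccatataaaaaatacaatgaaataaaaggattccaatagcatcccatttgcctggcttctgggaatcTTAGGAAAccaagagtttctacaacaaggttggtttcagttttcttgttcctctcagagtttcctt

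The Fpr1 window holds 3 such matches and that of Fpr2 holds 2.

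Hp, haptoglobin, binds free haemoglobin, and is made by the liver and stored in neutrophil granules. Its signal was 46.1, 37.1 and 44.5 on induced arrays, against 49.5, 52.7 and 63.0 on control arrays, so every induced array was below every control. The means were 42.6 ± 4.80 and 55.1 ± 7.05, and the log2 change of (signal + 16) was -0.28 with a standard error of 0.08 (limma, adjusted p = 0.112). Hp was called lower after quantile normalization (log2 change -0.50, adjusted p = 0.000361), after scaling to 1 trimmed mean (-0.39, adjusted p = 0.0345) and after scaling to 1 median of bright probe sets (-0.49, adjusted p = 0.000367). Genes of the liver were near absent: 9 of 11 plasma protein genes, Alb among them, were at or under background on all 6 arrays, and their summed signal was 3.5 to 7.2 on induced arrays and 4.9 to 15.0 on control arrays.

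Rescaling the arrays lowered every change and left the order of the genes from Slpi to Hp as it was. Slpi, Il1r2 and Trem1 were called higher and Hp lower under all 3 rescalings. The share of all genes called higher and lower was 3.68% and 3.67% after quantile normalization, 3.99% and 2.55% after scaling to 1 trimmed mean, and 3.43% and 3.77% after scaling to 1 median of bright probe sets. In the authors' deposited table Slpi, Il1r2, Trem1 and Csf3r were higher in induced arrays and Hp lower at an unadjusted p under 0.05, against 8.20% of all genes higher and 6.76% lower in that table. The induced over control ratio there was 2.16 for Slpi, 2.70 for Il1r2, 2.63 for the brighter Trem1 probe set, 1.10 for the other, 1.54 for Csf3r, 1.19 for Cxcr2, 1.54 for Fpr1, 0.904 for Fpr2 and 0.60 for Hp (authors' deposited table). For Il1r2 the authors' deposited table thus lies under the bound of 2.88 from the signals, and for Cxcr2 under the ratio of mean signals of 2.32, and how these ratios were made is not given in the sources used here. Slpi, Il1r2 and the brighter Trem1 probe set were the 3 of the 9 probe sets on the authors' deposited list of differences of at least 2-fold, which holds 1.54% of all probe sets as higher in induced arrays.

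**Figure D2:**
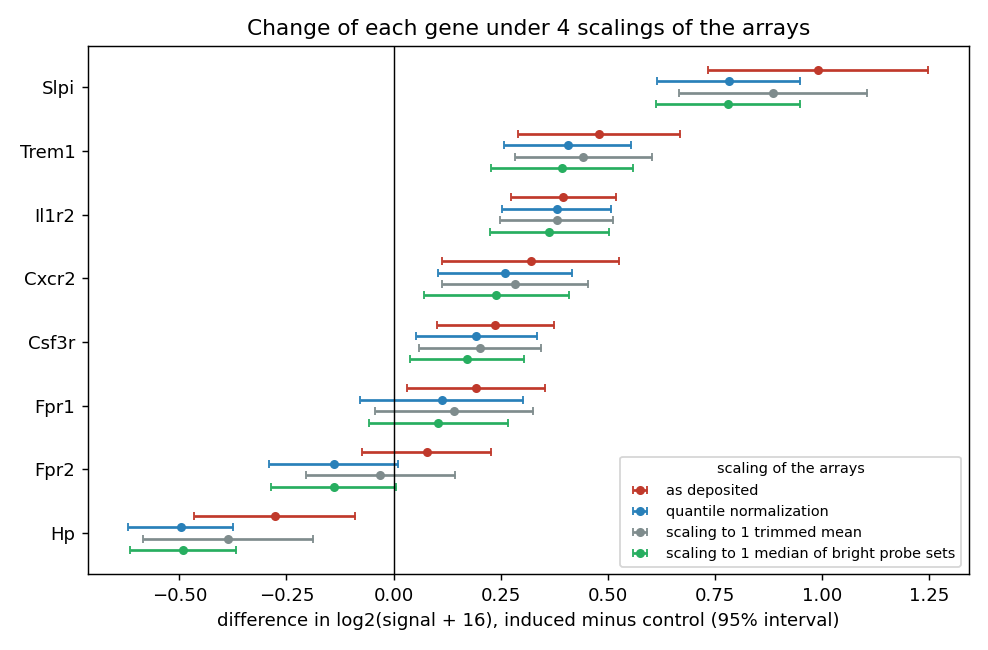
Change of the 8 genes, as the difference in log2(signal + 16), induced minus control, with its 95% interval from limma, for arrays as deposited and under 3 rescalings. Slpi, Trem1 and Il1r2 lie right of 0 and Hp left of 0 under all 4, and Fpr2 changes sign.

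Ranks within an array do not depend on its scale factor. Within each array every gene was ranked among all probe sets. Il1r2 stood at percentiles 88.0 to 91.6 on induced arrays, against 37.8 to 58.0 on control arrays, and Trem1 at 92.8 to 94.9, against 85.7 to 89.1. Csf3r stood at 90.0 to 92.5 on induced and 80.3 to 88.2 on control arrays, and Cxcr2 at 89.3 to 93.3 and 85.2 to 88.2. Slpi reached 98.9 to 99.0 on induced arrays, against 97.7 to 98.2 on control arrays, while Hp was at 98 to 98.2 and 98.7 to 98.8. The ranks of the groups did not overlap for 5 genes that stood higher and for Hp, which stood lower, against 11.1% and 10.1% of all genes tested.

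For 7 ratios between 2 of the genes within an array, the values are given as a description, since the pairs were chosen after the signals were seen and 6 of them share Fpr2. The Slpi over Hp ratio was 2.11, 2.06 and 1.58 on induced arrays, against 0.556, 0.592 and 0.635 on control arrays, a 3.22-fold difference. The Hp over Fpr2 ratio was 0.771 ± 0.0558 on induced arrays and 1.07 ± 0.0847 on control arrays. Slpi, Trem1, Csf3r and Cxcr2 were 2.33, 2.80, 1.83 and 2.15 times as high against Fpr2 on induced arrays as on controls. For these 6 ratios the groups did not overlap, and for Fpr1 over Fpr2 they did.

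**Figure D3:**
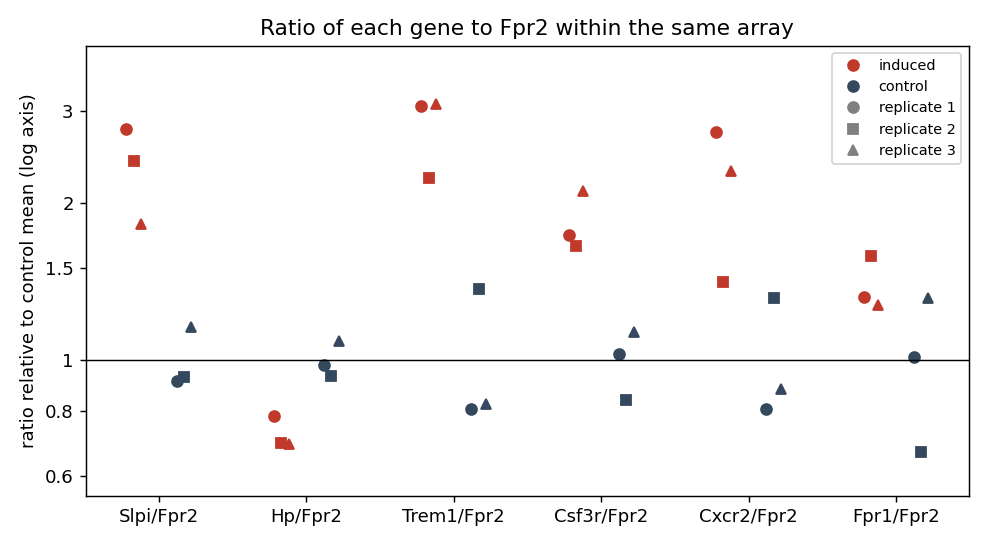
Signal of 6 genes divided by that of Fpr2 on the same array, relative to the mean of the control arrays (log axis). Each symbol is 1 array. For Slpi, Trem1, Csf3r and Cxcr2 all 3 induced arrays lie above the controls, for Hp below them, and for Fpr1 the groups overlap.

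Other genes of mature neutrophils were called higher in 14 of 20 and lower in 0 (limma, with 17 and 0 at an unadjusted p under 0.05), with a median log2 change of 0.38. The share called higher was 5.14% of all genes tested and 30.1% of those with a mean signal over 10. Clec4d, a C-type lectin receptor, averaged 91.2 ± 12.9 on induced and 24.5 ± 1.19 on control arrays (limma, adjusted p = 3.36e-05). Itgb2, the beta chain of the leukocyte integrins, averaged 47.8 ± 1.94 and 20.7 ± 1.18 (adjusted p = 5.09e-05), and the Fc receptor Fcgr3 46.9 ± 4.33 and 14.7 ± 5.49 (adjusted p = 0.000745). The calprotectin genes S100a8 and S100a9, the brightest of the list, were 1.31 and 1.26 times as high on induced arrays, and both lost their calls without control 1 or control 2, S100a8 also without induced 3, and S100a9 also without induced 1 or induced 2. The count was 6 without control 2, 7 without control 1 and 8 without induced 1, and 1 at a pseudocount of 1. It was 10 after quantile normalization and 9 under each of the other rescalings.

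Of 6 primary granule genes tested, whose products are made early in maturation, 4 fell and 1 rose, with a median log2 change of -0.52. Mpo, myeloperoxidase, averaged 71.3 ± 13.1 on induced and 149.2 ± 12.7 on control arrays (limma, adjusted p = 0.000876), and Prtn3, proteinase 3, 6.10 ± 1.81 and 17.2 ± 0.40 (adjusted p = 0.000805). The member that rose was Ctsc, the protease that activates the granule enzymes (35 ± 7.77 and 12.5 ± 4.90, adjusted p = 0.00688), and it lost its call without control 2 (adjusted p = 0.0717). Of 15 secondary and tertiary granule genes 1 rose and 2 fell, with a median of -0.03. The shares called were 5.14% higher and 1.82% lower over all genes, and 30.1% and 9.46% over genes with a mean signal over 10. Cyba, a subunit of the NADPH oxidase, rose (57.9 ± 8.72 and 24.9 ± 4.23, adjusted p = 0.00098), and the lectin Fcnb and the iron binder Ltf fell (13 ± 0.60 and 19.6 ± 1.31, 220.8 ± 20.6 and 290.1 ± 32.5). After quantile normalization 8 of this list fell, and 6 did after scaling to 1 median of bright probe sets. The falls were 1 without control 1, control 3, induced 2 or induced 3, and 3 without control 2 or induced 1. Ltf lost its call without control 1, control 3, induced 2 or induced 3 (adjusted p 0.128 to 0.149).

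**Figure D4:**
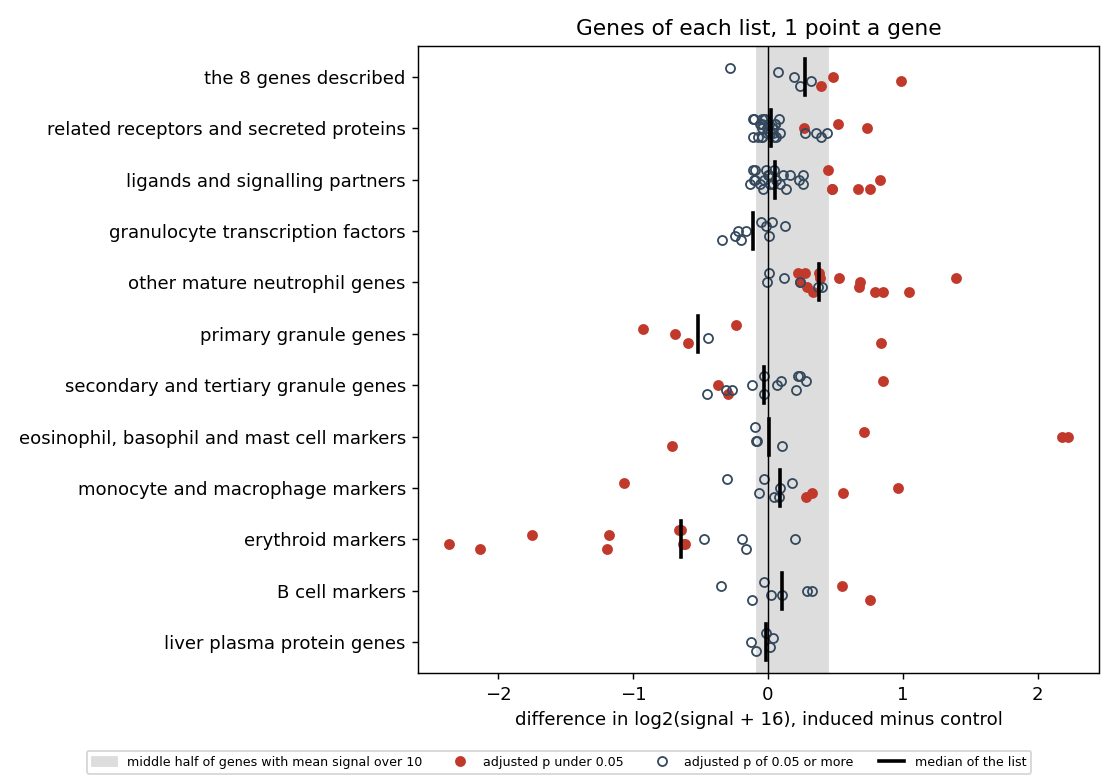
Difference in log2(signal + 16), induced minus control, of the genes tested in each list, 1 point a gene. Filled points have an adjusted p under 0.05, black bars are list medians, and the grey band spans the lower to the upper quartile of the 1913 genes with a mean signal over 10. The 8 genes and the other mature neutrophil genes lie mostly right of 0, and primary granule and erythroid genes mostly left.

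Ligands and signalling partners of these receptors rose in 6 of 28 and fell in 0 (limma, with 8 and 0 at an unadjusted p under 0.05), with a median log2 change of 0.05. Of all genes tested 5.14% were called higher, and of those with a mean signal over 10, 30.1%. Tyrobp, the adaptor of Trem1, averaged 144.2 ± 18.5 on induced and 73.6 ± 5.57 on control arrays (limma, adjusted p = 0.000621). Cxcl2, a ligand of Cxcr2, was 12.9, 14.7 and 7.8 on induced arrays, against 0, 1.0 and 0.1 on control arrays, at least 5.90-fold higher (adjusted p = 0.00113). Il1rn, the interleukin 1 receptor antagonist, averaged 13.1 ± 2.46 and 4.83 ± 1.05 (adjusted p = 0.00361). The count was 5 or 6 without any 1 array, 3 with no filter and 1 at a pseudocount of 1. Of 32 related receptors and secreted proteins 3 were called higher and 0 lower (limma, with 7 and 1 at an unadjusted p under 0.05). Over all genes 5.14% were called higher and 1.82% lower. The median log2 change of these 32 was 0.03, and 13 of the 36 with a probe set were at background on all arrays. Ccr1, a chemokine receptor of monocytes and neutrophils, averaged 16 ± 1.01 and 3.23 ± 0.666 (adjusted p = 7.91e-05). Csf1r, the receptor for the macrophage growth factor, averaged 27.2 ± 3.29 and 14.4 ± 5.41 (adjusted p = 0.0356), and Il1r1, the signalling interleukin 1 receptor, was at least 2.22-fold higher (adjusted p = 0.0281). Leaving out induced 1 or induced 3 gave 1 such call, and leaving out any other array gave 2. The number was also 1 with no filter, at a pseudocount of 1 or 64, with averaged probe sets and after scaling to 1 median of bright probe sets, and 5 with an intensity trend. Csf1r lost its call without any 1 array but control 1, and Il1r1 without any 1 array but control 2.

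Single markers of other marrow cells also differed between the groups, and their part in the values of the 8 genes was not tested. Beside the counts below, 5.14% of all genes tested were called higher and 1.82% lower. Among genes with a mean signal over 10 these shares were 30.1% and 9.46%. Of 12 monocyte and macrophage markers 4 rose and 1 fell (median log2 change 0.09). Their summed signals overlapped, at 101.1 to 126.0 on induced and 75 to 113.5 on control arrays. C1qb, a complement gene of macrophages, averaged 24.7 ± 2.57 and 4.87 ± 2.05, Cd68 16.8 ± 2.75 and 6.23 ± 1.29, and F13a1, which monocytes express, 6.40 ± 2 and 31.0 ± 5.46 (limma, adjusted p = 0.000168, 0.00208 and 0.00027). The other C1q chains were not called. C1qa averaged 1.03 ± 0.902 on induced and 1.83 ± 1.45 on control arrays, and C1qc 4.50 ± 2.10 and 2.13 ± 1.78 (limma, adjusted p = 0.79 and 0.451). In this list the rises numbered 2 without control 1, control 2, induced 1 or induced 3. Marco was under background on all arrays. Among 8 markers of eosinophils, basophils and mast cells, 3 rose and 1 fell (median 0.01). Their summed signal was 222.3 to 274.5 on induced and 36.4 to 53.1 on control arrays, mostly from Ear1 and Prg2 (means 94.2 and 124.2 against 7.67 and 14.9), while the basophil protease Mcpt8 fell (2.13 ± 1.69 and 13.7 ± 2.40). Erythroid markers fell in 9 of 13 and rose in 0 (limma; 11 and 1 at an unadjusted p under 0.05; median log2 change -0.64), with summed signals of 289.3 to 371.5 on induced and 1211 to 1400 on control arrays. Tfrc, the transferrin receptor, averaged 40.3 ± 4.76 and 273.5 ± 24.8, Ermap 15.6 ± 1.94 and 55.6 ± 1.02, and Slc4a1 105.4 ± 6.29 and 394.1 ± 55.6.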

How the data were processed

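Total RNA of whole bone marrow was measured on 6 Affymetrix arrays, grouped by the labels. The authors' deposited table gives a linear signal intensity per probe set, computed with MAS5, per the submitters' processing notes; its version and scaling target are not given in the sources used here. The authors' deposited comparison table holds, per the file headers, a ratio (control over induced, linear) and its p-value without adjustment. The arrays' number limits the precision.

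Signals were used as deposited, as log2(signal + 16), a scale that understates changes of dim genes. Probe sets over the 30th percentile of the mean were tested in limma 3.58.1 under R 4.3.3 (lmFit, eBayes), with Benjamini-Hochberg adjustment over 31526 probe sets, 64 control probe sets left out. Of the rest, 38011 had 1 gene symbol, 1280 several and 5746 none, and symbols were updated through RefSeq synonyms. Where a gene had several probe sets, the brightest by mean log2 value stood for it. Background (2) was the highest signal of 27 bacterial control probe sets. The genes, lists and tests were chosen with earlier results of these data known. Every probe set of the 8 genes was named, and in each list the 3 called genes with the smallest p or, with none called, the 2 brightest. S100a8, S100a9, Alb, Marco, C1qa, C1qc, Cebpa, Cebpd, Klf4 and Ms4a3 were named after their values were seen. Single values were compared with exact permutation tests. Alternatives were 3 rescalings, an intensity trend, pseudocounts of 1 and 64, testing every probe set or those over the 60th percentile, the replicate number as a block, the mean of a gene's probe sets, the authors' p-values, and leaving out each array. In simulated data for induced against control over 31526 probe sets, 70% of 100 probe sets changed 2-fold and 99% of 100 changed 4-fold were recovered. All changed probe sets had a mean signal over 10, so recovery of dimmer ones, such as those of Csf3r and Cxcr2, was not simulated. Of the calls 5.06% were false. Apart from the changed probe sets, both groups were drawn around the same means. A difference in brightness between the groups was thus not simulated, and the false share does not cover it. Promoter bases came from RefSeq.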

Additional observations from a re-analysis of the deposited data

How the results depend on the processing

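Of the 8 genes, 3 were called higher and 0 lower as deposited. The higher count was 1 at a pseudocount of 1 and 3 to 4 without any 1 array. The lower count was 1 after quantile normalization, after scaling to 1 trimmed mean, after scaling to 1 median of bright probe sets and by the authors' unadjusted p, and 0 without any 1 array. The change of Fpr2 reversed to -0.14 after quantile normalization, -0.14 after scaling to 1 median of bright probe sets and -0.031 after scaling to 1 trimmed mean, which lower the signals of brighter arrays by construction. Over all probe sets 1320 were called higher and 427 lower, and the counts were 595 and 246 with no filter, 110 and 101 at a pseudocount of 1, 801 higher at a pseudocount of 64, 838 lower after quantile normalization and 866 lower after scaling to 1 median of bright probe sets. Of the called probe sets 75.6% were higher as deposited, 53.3% after quantile normalization and 51.0% after scaling to 1 median of bright probe sets. Without any 1 array they were 728 to 1297 and 262 to 429, lowest without control 2. The cause of these shifts was not tested. With the replicate number as a block 3 of the 8 genes were called higher (1052 and 325 probe sets in all). Deviations of arrays with the same number had correlations of -0.07, 0.04 and -0.03, and no induced array correlated best with the control of its own number. The labels give no pairing, and with 3 arrays a group these correlations cannot decide whether there was any. Among the lists, primary granule falls numbered 0 and erythroid falls 6 at a pseudocount of 1. Mature neutrophil genes were 6 with no filter and 8 with the block. Granulocyte transcription factors had 4 falls after quantile normalization or scaling to 1 median of bright probe sets, against 0 as deposited. After these rescalings 3.67% and 3.77% of all genes were called lower, against 1.82% as deposited. Signals within a few units of background, as for Il1r2 and Csf3r, limit what these arrays can resolve.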

Other observations

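Of 10 transcription factors of granulocytes tested, 0 were called in either direction by limma as deposited. Over all genes tested 5.14% were called higher and 1.82% lower. Of the 10 factors 3 had a positive log2 change, and the median was -0.11. The brightest were Mxd1, a Myc antagonist of maturing myeloid cells, with 38.9 ± 5.30 on induced and 48.6 ± 11.5 on control arrays (adjusted p = 0.483), and Irf8, a factor of the monocyte lineage, with 5.97 ± 2.11 and 11.8 ± 2.62 (adjusted p = 0.0543). Of these 10 factors, 4 (Irf8, Cebpa, Cebpd and Klf4, all lower) had an unadjusted p under 0.05, and 1 was called lower without control 1 or induced 2.

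B cell markers were called higher in 2 of 9 and lower in 0 by limma, with a median log2 change of 0.10. At an unadjusted p under 0.05 these counts were 4 and 1, and 1 marker was called lower without induced 3. Among all genes tested 5.14% were called higher, and among those with a mean signal over 10, 30.1%. The immunoglobulin heavy chain gene Ighm averaged 33.6 ± 4.2 on induced and 13.3 ± 2.26 on control arrays, and Cd79b, a chain of the B cell receptor, 45.8 ± 4.08 and 26.2 ± 4.37 (limma, adjusted p = 0.000633 and 0.004). Of the 5 liver plasma protein genes tested, 0 were called by limma and 0 had an unadjusted p under 0.05. The brightest were Orm1 (1.70 ± 0.889 on induced and 3.27 ± 1.00 on control arrays) and Saa2.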
